A study of Rattus norvegicus with 18 samples.

Results

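RNA silencing of the aryl hydrocarbon receptor (AHR) with one siRNA, siAHR-5, was compared with a control siRNA (siCtrl) in MYC-expressing rat fibroblasts. The members are the 3 siAHR-5 and the 3 siCtrl libraries, chosen by their labels, which are 6 of the 18 RNA-seq libraries of the series. All 6 come from HO15.19, a Rat1 fibroblast line without functional endogenous myc (myc-/-), into which human MYC was introduced by viral infection (myc-/- + MYC). Cells were grown in 10% FBS, transfected with 40 nM siRNA and harvested after 48 h. They were also set beside 3 libraries of the same myc-/- + MYC cells with a different siRNA against the same gene (siAHR-2, same dose and time) and 3 of untransfected myc-/- cells without MYC, which the authors had put on the same scale. The myc-/- libraries differ from siCtrl in both MYC and transfection, so their levels are given without a test. The remaining 6 libraries lie on another scale and were not used. The line is a single established cell line, MYC is driven by an exogenous promoter, and AHR silencing was not sequenced in cells without MYC. Nothing in the labels says that the replicates were separate cultures, so the p-values measure only the spread between these libraries. The siRNA sequences were not given in the sources used here.

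AHR is a transcription factor that waits in the cytoplasm in a complex with HSP90 and co-chaperones such as p23 (Ptges3). When a ligand binds, such as a dioxin or a tryptophan metabolite, AHR moves into the nucleus, pairs with ARNT and binds response elements whose core is GCGTG, usually switching on genes of xenobiotic metabolism. One of its targets, the AHR repressor Ahrr, competes for ARNT and so limits the response.

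The promoters of 4 genes that fell with siAHR-5 are shown. Ahrr, Cyp1b1 and Nqo1 are textbook AHR targets that fell with siAHR-5 and were lower with siAHR-2 too. Their siAHR-2 minus siCtrl differences were -0.80, -1.01 and -0.47, the last short of the fold cutoff used here. Rad23b, which is not on the list of AHR targets used here, had the largest fall with siAHR-5 (-2.17). With siAHR-2 its difference from siCtrl was far smaller, at -0.42. Each run is the 250 bases before the transcription start in RefSeq (GRCr8, a newer build than the rn6 used by the authors), read 5′ to 3′ on the gene's strand. The windows are chr1:30821969-30822218 (plus strand) for Ahrr, chr6:21094315-21094564 (plus) for Cyp1b1, chr19:52220268-52220517 (minus) for Nqo1 and chr5:74885268-74885517 (plus) for Rad23b. Capitals mark GCGTG or its reverse complement CACGC.
Ahrr: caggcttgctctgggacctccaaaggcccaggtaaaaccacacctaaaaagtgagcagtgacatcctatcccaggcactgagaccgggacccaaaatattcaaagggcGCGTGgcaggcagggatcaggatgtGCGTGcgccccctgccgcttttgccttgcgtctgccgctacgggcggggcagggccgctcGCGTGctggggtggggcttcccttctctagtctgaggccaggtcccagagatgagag
Cyp1b1: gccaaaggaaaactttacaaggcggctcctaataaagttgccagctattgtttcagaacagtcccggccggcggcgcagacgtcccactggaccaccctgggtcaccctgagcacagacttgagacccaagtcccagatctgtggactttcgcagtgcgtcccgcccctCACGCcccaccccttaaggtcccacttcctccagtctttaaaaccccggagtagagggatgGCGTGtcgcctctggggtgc
Nqo1: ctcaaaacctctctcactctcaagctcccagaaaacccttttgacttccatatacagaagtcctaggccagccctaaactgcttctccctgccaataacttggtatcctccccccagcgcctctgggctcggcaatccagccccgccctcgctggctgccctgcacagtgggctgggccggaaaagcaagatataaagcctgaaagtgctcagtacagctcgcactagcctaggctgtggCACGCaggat
Rad23b: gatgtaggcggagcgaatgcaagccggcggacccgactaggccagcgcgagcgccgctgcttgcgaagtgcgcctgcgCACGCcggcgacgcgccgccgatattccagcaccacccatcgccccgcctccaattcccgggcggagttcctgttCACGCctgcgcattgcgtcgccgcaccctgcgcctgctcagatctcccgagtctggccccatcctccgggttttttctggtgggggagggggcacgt

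Ahrr holds 3 matches, Cyp1b1 and Rad23b hold 2 each, and Nqo1 holds 1. The window of Atcay, the gene with the largest rise, was also read and holds 0. These letters are common. Of the 9842 genes of the table with a promoter in the reference, 4155 (42.2%) hold GCGTG on either strand, against 27.2% of all 27457 reference promoters. The letters were found in 46 of 86 genes that fell with siAHR-5 (53.5%), in 58 of 138 that rose (42.0%) and in 9 of 13 listed AHR targets (69.2%). The same letters also occur in the core of hypoxia response elements. A match is a description of the window and not a bound site.

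Ahr itself was lower in all siAHR-5 libraries. The deposited log2 values were 11.95, 11.76 and 11.94 with siAHR-5 against 13.34, 13.26 and 13.22 with siCtrl, and the groups did not overlap, which was so for 50.5% of all genes. The difference was -1.39 (SE 0.0612, limma adjusted p = 2.16e-04), which leaves 38.1% of the siCtrl level. With siAHR-2 the values were 11.97, 11.97 and 12.03, and the direct difference of siAHR-5 minus siAHR-2 was -0.11 (SE 0.0570, limma adjusted p = 0.211). The myc-/- cells without MYC read 12.01, 11.67 and 11.95, overlapping the libraries of both siRNAs. Here and below, log2FC is siAHR-5 minus siCtrl unless another pair is named, and a call needs a log2FC of 0.585 or more in either direction, or a fold of 1.5, at an adjusted p no greater than 0.01.

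Known targets of AHR split into a few that fell and many that did not pass. Of 20 listed targets 16 were in the table, and 4 fell and 0 rose, where 0.849% of all genes fell and 1.47% rose. At an adjusted p below 0.05 without the fold, 7 were lower and 1 was higher, where 18.1% of all genes were lower and 21.1% higher. Aldh3a1, an aldehyde dehydrogenase of the classical AHR battery, read 10.11, 9.92 and 9.83 with siAHR-5 and 11.51, 11.61 and 11.60 with siCtrl. It fell by 1.62 on the log2 scale (SE 0.0787, limma adjusted p = 2.58e-04), to 32.5% of the control. Ahrr fell by 1.19, from 13.60, 13.57 and 13.51 to 12.41, 12.29 and 12.39. Cyp1b1, a cytochrome P450 that oxidises steroids and polycyclic hydrocarbons, fell by 0.99, from 13.37, 13.34 and 13.15 to 12.38, 12.27 and 12.25. Nqo1, the quinone reductase that AHR and NRF2 both control, fell by 0.72, from 14.01, 14.01 and 14.07 to 13.31, 13.32 and 13.31. In each of these genes every siAHR-5 library lay below every siCtrl library. The groups did not overlap in any of the 306 called genes, nor in 50.5% of all genes.

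**Figure D1:**
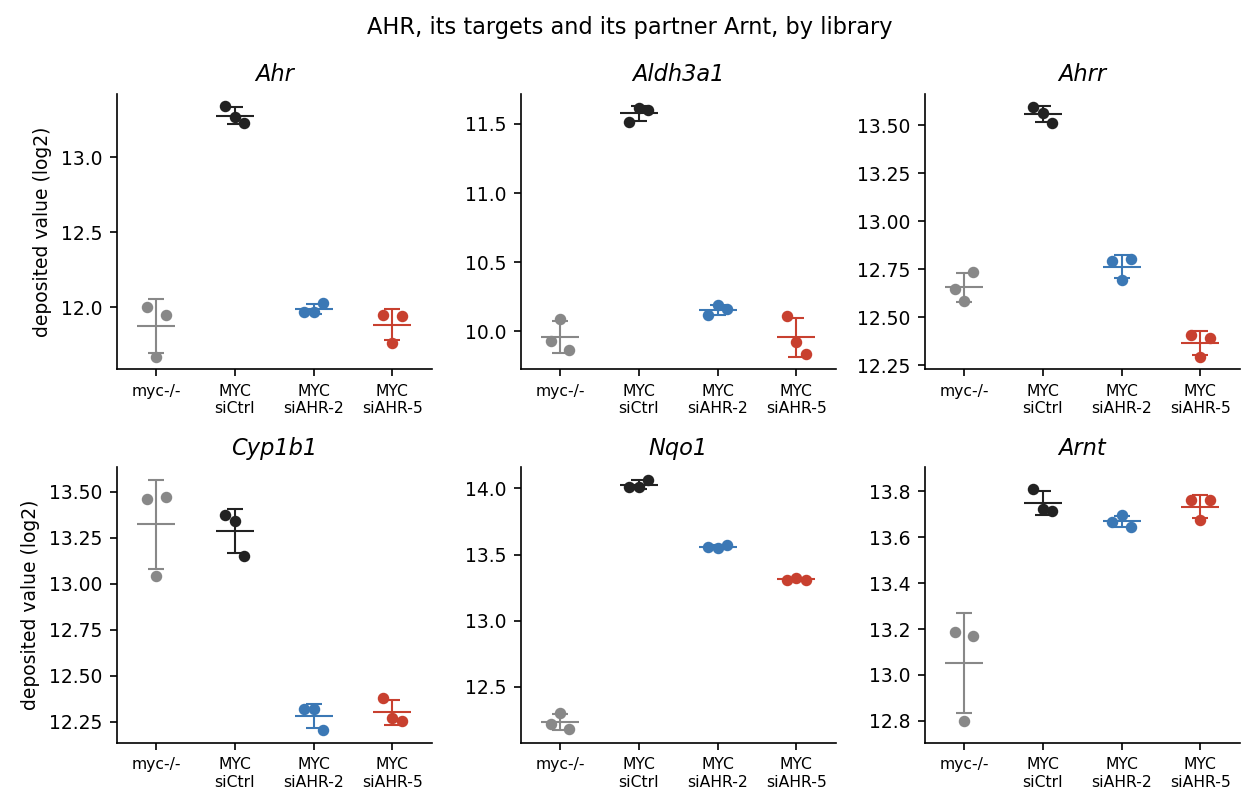
Deposited log2 value (y axis, own range in each panel) of Ahr, 4 of its targets and its partner Arnt in the 12 libraries on one scale, by group on the x axis. Points are libraries, the horizontal bar is the group mean and the error bars are 1 SD (n = 3). Ahr, Aldh3a1, Ahrr, Cyp1b1 and Nqo1 are lower with siAHR-5 than with siCtrl, with log2FC of -1.39, -1.62, -1.19, -0.99 and -0.72 in the order of the panels, while Arnt overlaps between these groups.

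The targets did not all respond alike to both siRNAs. Aldh3a1 (siAHR-5 minus siAHR-2 -0.20, limma adjusted p = 0.100) and Cyp1b1 (0.02, adjusted p = 0.793) were not separated by the direct test. Ahrr was lower with siAHR-5 than with siAHR-2 (log2 difference -0.40, SE 0.0444, limma adjusted p = 0.00157), and so was Nqo1 (-0.25, SE 0.0150, adjusted p = 2.47e-04). Ugt1a6, a glucuronosyltransferase of the same battery, went the other way. It read 8.84, 8.92 and 8.87 with siAHR-5, 9.13, 9.10 and 8.99 with siCtrl and 8.47, 8.42 and 8.39 with siAHR-2, so that siAHR-5 stood 0.45 above siAHR-2 (SE 0.0438, limma adjusted p = 0.00102).

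The remaining targets stayed within the cutoffs. Cyp1a1, the most familiar AHR target, was near the bottom of its scale in every library, at 3.57, 3.62 and 3.61 with siAHR-5 and 3.82, 3.90 and 3.70 with siCtrl (log2FC -0.21, limma adjusted p = 0.0278). Slc7a5, the large neutral amino acid transporter that brings tryptophan metabolites into the cell, had a log2FC of -0.15 (limma adjusted p = 0.00447). Nfe2l2, which encodes NRF2, had -0.12 (adjusted p = 0.0526). Scin (0.21), Vav3 (0.20), Sos1 (0.13), Serpinb2 (0.13), Ugt1a7c (0.03), Gsta3 (0.01), Hes1 (0.01) and Ereg (0.00) lay at or above 0 on the deposited scale without passing. Ereg was listed at the same 1.11 in all 6 libraries, the lowest value that row takes.

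Among AHR's partners few changes were large. Of 13 listed partners and chaperones in the table, Ahrr was the 1 called, where 2.32% of all genes were called. At an adjusted p below 0.05 without the fold, 6 were lower and 2 higher, where 18.1% of all genes were lower and 21.1% higher. Arnt, the obligate partner, read 13.76, 13.68 and 13.76 against 13.81, 13.72 and 13.71 (log2FC -0.02, limma adjusted p = 0.797). Ptges3 (0.08, limma adjusted p = 0.162) did not pass either. Of the cytosolic HSP90 genes, Hsp90ab1 had a log2FC of -0.26 (limma adjusted p = 0.00279) and Hsp90aa1 -0.38 (adjusted p = 0.0269), both short of the fold. After quantile normalization Hsp90ab1, a gene of very high level, stood at -0.07. Rela, the NF-kappaB subunit that can pair with AHR, had 0.21 (limma adjusted p = 0.00345).

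Across the table, 306 of 13188 genes (2.32%) were called, of which 194 rose and 112 fell. The balance of directions rests on the scale. After quantile normalization 127 rose and 126 fell, and after centring each library on its median 140 rose and 165 fell. The median log2FC of all genes was 0.01 as deposited and -0.05 after centring. The change also varied with the level of a gene. Genes with a mean value between 8 and 10 had a median log2FC of 0.13, and 59 of 961 rose while 1 fell. The 320 genes above 16 had a median of -0.15. Quantile normalization took these medians to -0.03 and 0.00. Off the log scale, the values of a library amounted to 136 to 137 times a CPM total with siAHR-5 and to 143 to 144 times with siCtrl. Set directly against siAHR-2, siAHR-5 gave 287 called genes (2.18%), with 175 higher (1.33%) and 112 lower (0.849%).

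**Figure D2:**
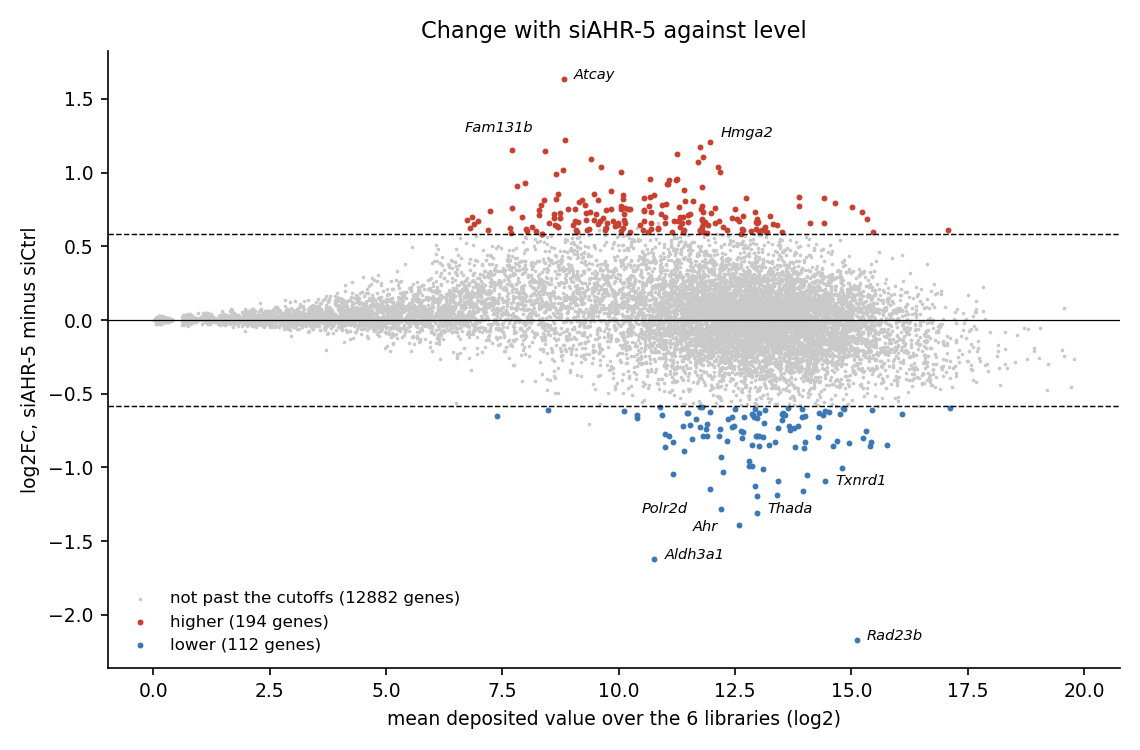
log2FC with siAHR-5 (y axis) against the mean deposited log2 value over the 6 libraries (x axis), 1 point a gene, with the 194 genes that rose in red, the 112 that fell in blue and dashed lines at the fold cutoff. Rises are most frequent at middle levels, falls at higher levels, and genes of low level spread little around 0.

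The largest falls included Ahr and its targets, which both siRNAs lowered, and genes that siAHR-2 lowered far less or not at all. Rad23b, a DNA repair factor that binds XPC and carries ubiquitinated proteins to the proteasome, was the most reduced gene. It read 14.06, 13.995 and 14.04 with siAHR-5 against 16.23, 16.22 and 16.14 with siCtrl, a log2FC of -2.17 (SE 0.0302, limma adjusted p = 2.61e-05), which leaves 22.2% of the control. In the siAHR-2 libraries Rad23b read 15.75, 15.77 and 15.81, and the direct difference between the siRNAs was -1.75 (SE 0.0241, limma adjusted p = 2.37e-05). In the myc-/- cells it read 16.24, 16.13 and 16.22, so the siAHR-5 libraries stood apart from the other 9.

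Of the 12 largest falls, 3 were Ahr, Aldh3a1 and Ahrr. The other 9 were Rad23b, Thada (-1.31), Polr2d (-1.28), Habp4 (-1.18), Itfg1 (-1.16), LOC499331 (-1.15), Bud31 (-1.13), Txnrd1 (-1.09) and Eif4e2 (-1.09). Polr2d encodes the RPB4 subunit of RNA polymerase II, Bud31 a splicing factor and Eif4e2 a cap-binding protein related to eIF4E. Thada read 12.36, 12.25 and 12.36 with siAHR-5, 13.65, 13.61 and 13.65 with siCtrl and 13.51, 13.51 and 13.52 with siAHR-2. Txnrd1, the cytosolic thioredoxin reductase, read 13.89, 13.87 and 13.90 with siAHR-5, 14.98, 14.96 and 14.99 with siCtrl and 14.76, 14.78 and 14.71 with siAHR-2. These 9 genes were all lower with siAHR-5 than with siAHR-2 by the direct test, with differences from -1.75 for Rad23b to -0.86 for Txnrd1, and limma adjusted p from 2.37e-05 to 8.22e-05. Their log2FC for siAHR-2 minus siCtrl ran from -0.42 for Rad23b to 0.07 for LOC499331. The genes were chosen for their change in the same siAHR-5 libraries, and both siRNAs are set against the same siCtrl libraries, so the direct test is not independent of the choice.

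**Figure D3:**
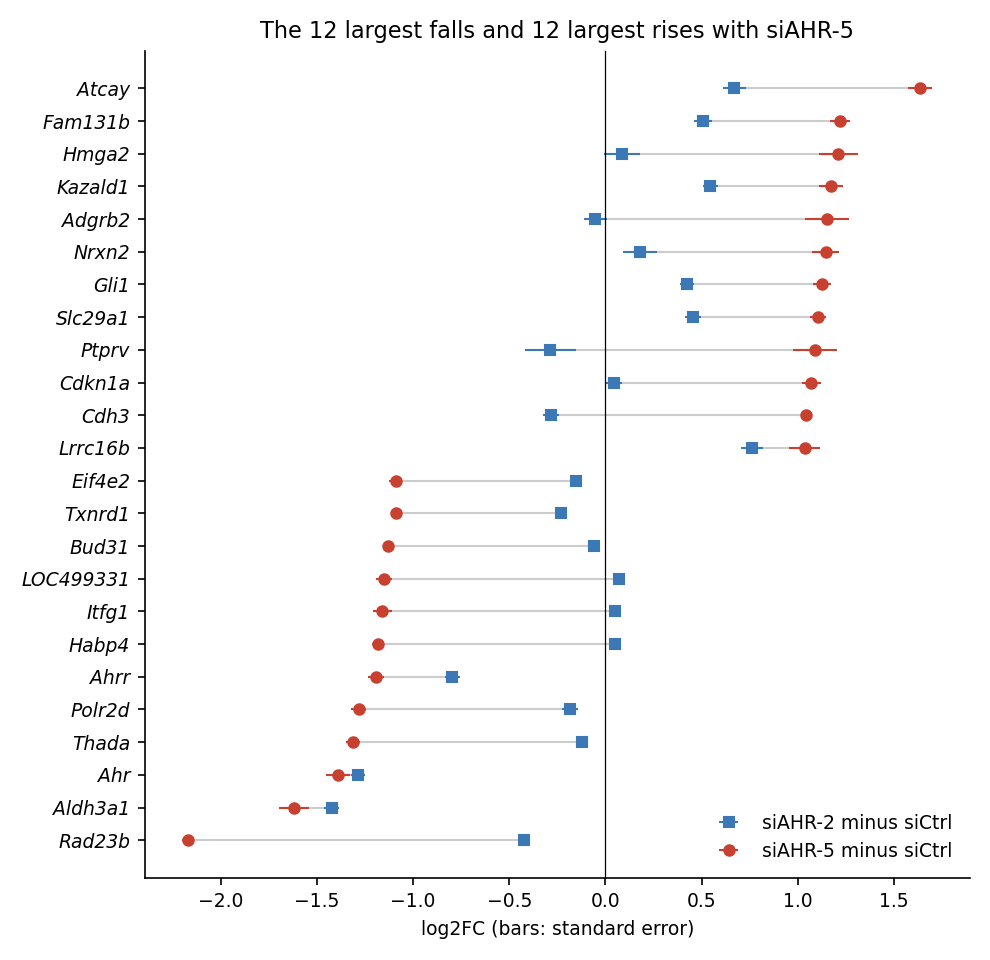
log2FC against siCtrl (x axis) of the 12 largest falls and 12 largest rises with siAHR-5, for siAHR-5 (red circles) and siAHR-2 (blue squares), with standard errors as bars. Both comparisons use the same siCtrl libraries. For Ahr and Aldh3a1 the symbols lie close together, while Rad23b stands at -2.17 with siAHR-5 and at -0.42 with siAHR-2.

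The largest rises were smaller than the largest falls. Atcay, which encodes the neuronal protein caytaxin, led with 9.64, 9.69 and 9.58 against 7.91, 8.01 and 8.08, a log2FC of 1.64 (SE 0.0619, limma adjusted p = 1.84e-04), or 3.11 times the control. Fam131b followed at 1.22. Hmga2, a chromatin protein of embryonic and transformed cells, read 12.49, 12.70 and 12.53 against 11.50, 11.41 and 11.18 (log2FC 1.21, SE 0.101, limma adjusted p = 7.28e-04), while siAHR-2 gave 11.53, 11.43 and 11.38. The siAHR-5 values of Hmga2 were above those of every other library on this scale, including the myc-/- libraries at 11.98, 11.80 and 12.08.

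The 12 rises were chosen, like the falls, for their change in the same siAHR-5 libraries, so their direct test against siAHR-2 is not independent of the choice either. The other large rises were Kazald1 (1.17), the adhesion receptor Adgrb2 (1.15), the synaptic adhesion gene Nrxn2 (1.15), Gli1 (1.13), Slc29a1 (1.10), Ptprv (1.09), Cdkn1a (1.07), Cdh3 (1.04) and Lrrc16b (1.04). Gli1 is the Hedgehog-activated transcription factor, Slc29a1 the nucleoside transporter ENT1 and Cdh3 P-cadherin. Cdkn1a, the p53-induced inhibitor of cyclin-dependent kinases also called p21, read 12.20, 12.22 and 12.28 against 11.07, 11.20 and 11.21, and 11.20, 11.19 and 11.22 with siAHR-2. By the direct test all 12 rises were higher with siAHR-5 than with siAHR-2 at an adjusted p below 0.05, by 0.27 for Lrrc16b (limma adjusted p = 0.0229) to 1.38 for Ptprv (adjusted p = 3.19e-04). siAHR-2 moved part of this group in the same direction by itself, with Lrrc16b at 0.76, Atcay at 0.67 and Kazald1 at 0.55 over siCtrl. Cdh3 (-0.28, limma adjusted p = 0.00668), Ptprv (-0.29, adjusted p = 0.172) and Adgrb2 (-0.05, adjusted p = 0.574) lay below siCtrl with siAHR-2.

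**Figure D4:**
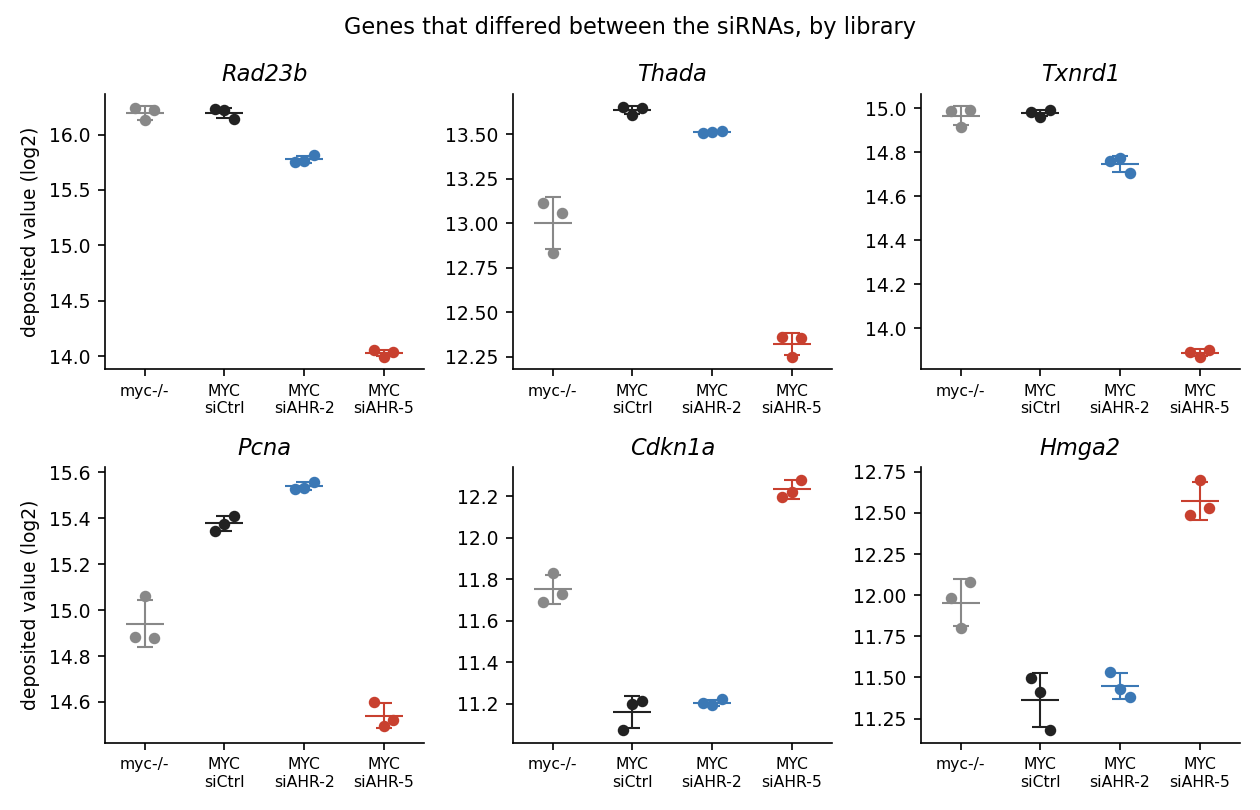
Deposited log2 value (y axis, own range in each panel) of Rad23b, Thada, Txnrd1, Pcna, Cdkn1a and Hmga2 in the 12 libraries on one scale, by group on the x axis, with group means and 1 SD (n = 3). The 6 genes were picked because they differed between the siRNAs, so their separation follows from the choice. In all 6 the siAHR-5 libraries lie apart from siCtrl, as in 50.5% of all genes, and from siAHR-2, for which that share was not counted. Direct differences from siAHR-2 run from -1.75 for Rad23b to 1.12 for Hmga2.

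Lists of genes for making ribosomes leaned down, with few members past the cutoffs. Ribosome assembly, a process that MYC drives, starts with RNA polymerase I in the nucleolus and ends with ribosomal proteins joined to rRNA. Of 98 nucleolar assembly factors, 2 fell past the cutoffs, where 0.849% of all genes fell: Ltv1, a factor of small subunit maturation, by 0.99, and Nip7 by 0.76. An adjusted p below 0.05 without the fold was met by 39.2% of all genes. By this measure 79 of the 98 were lower and 1 was higher, where 18.1% of all genes were lower and 21.1% higher, and their median log2FC was -0.28, beside -0.18 for siAHR-2 minus siCtrl. The mean over the list was 13.36, 13.36 and 13.36 in the siAHR-5 libraries, and its lowest siCtrl library read 13.62. Of 17 RNA polymerase I genes, 0 were called and 11 were lower at an adjusted p below 0.05, with a median of -0.22, beside -0.06 for siAHR-2.

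Cytoplasmic ribosomal proteins leaned down with siAHR-5, with a median log2FC of -0.31. At an adjusted p below 0.05, 67 of 84 were lower and 1 was higher, where 18.1% of all genes were lower and 21.1% higher. The mean over these genes was 15.57, 15.63 and 15.52 in the siAHR-5 libraries, 15.84, 15.88 and 15.87 with siCtrl and 15.89, 15.91 and 15.86 with siAHR-2. The siAHR-5 libraries were therefore below both other groups, and the median log2FC for siAHR-2 was 0.02. By the direct test, at an adjusted p below 0.05, 73 of 84 were lower with siAHR-5 than with siAHR-2 and 0 were higher, where 39.1% of all genes differed, 17.0% lower and 22.1% higher. Rpl7 was the 1 called, a share near the 0.849% of all genes that fell. It stood at -0.60 and misses the fold after quantile normalization (-0.45) or without siCtrl replicate 3 (-0.57). These are genes of high level, where the scale matters: quantile normalization moved the median to -0.19 and left 56 of 84 lower and 2 higher, where it put 39.2% of all genes past an adjusted p of 0.05, 19.4% lower and 19.9% higher. Many ribosomal proteins have near-identical processed copies, so single genes of this family are uncertain.

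The medians of the other translation lists lay on the same side. Of 52 translation factors, Eif4e2 and Eef1d (-0.83), a subunit of the elongation factor 1 complex, fell and Eif5a2 (0.62) rose, and 36 were lower and 3 higher at an adjusted p below 0.05. Of all genes, 0.849% fell and 1.47% rose, and 18.1% were lower and 21.1% higher by the wider measure. Eif5a2 misses the fold after centring (0.56) and without siAHR-5 replicate 3 (0.58). Of 67 mitochondrial ribosomal proteins, Mrpl43 (-0.85) was the 1 that fell, a share near that of all genes, and 44 were lower and 4 higher. Of 35 tRNA synthetases 0 were called, and 24 were lower and 1 higher. The medians were -0.25, -0.19 and -0.15 in these lists, beside -0.13, -0.06 and -0.11 for siAHR-2 minus siCtrl, which shares the siCtrl libraries.

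**Figure D5:**
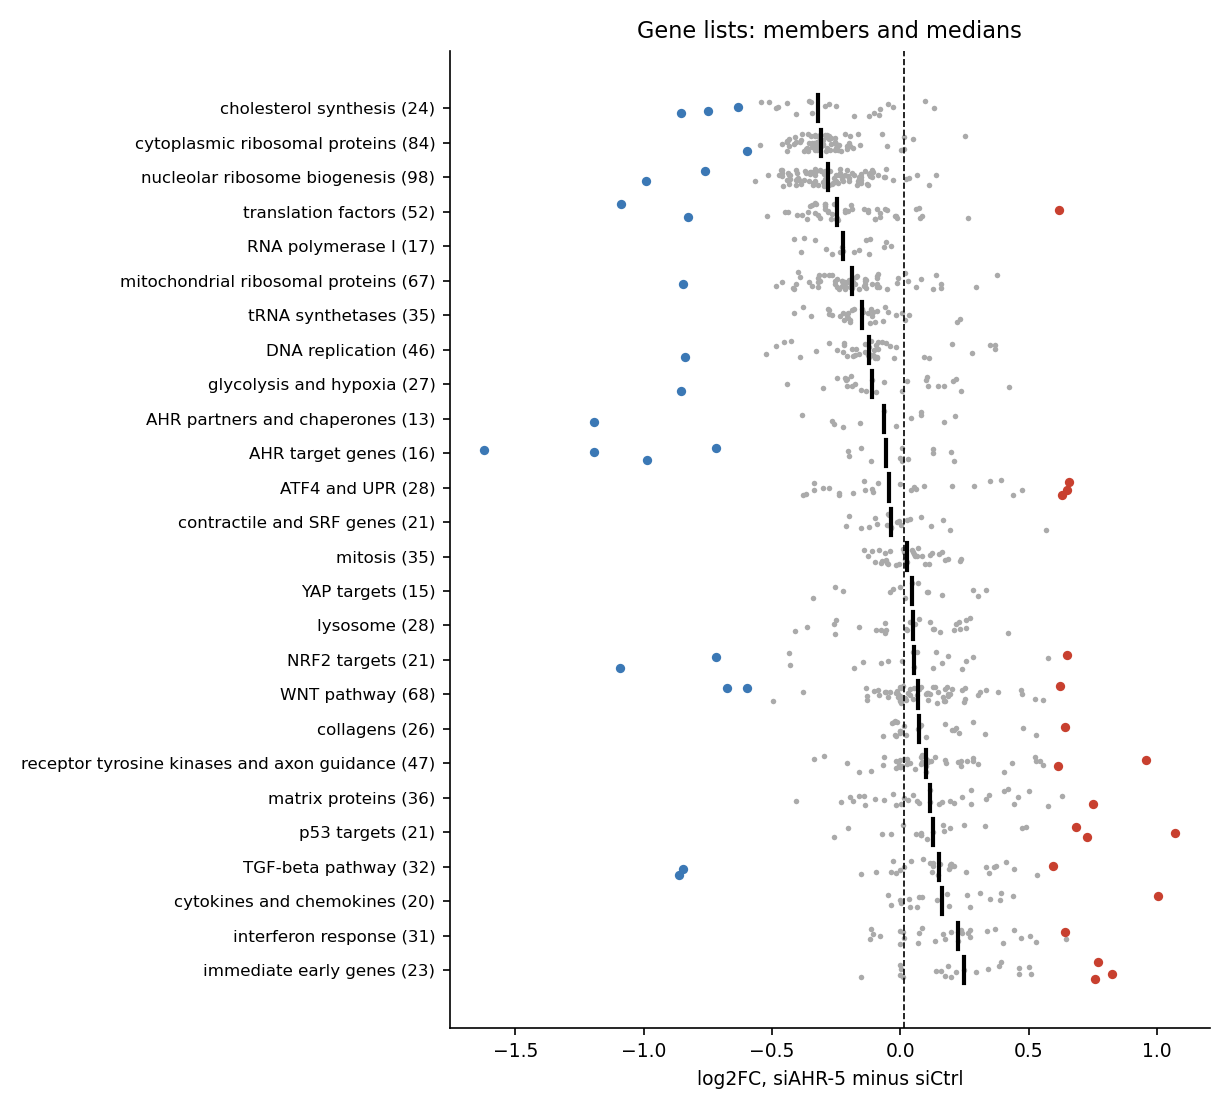
log2FC with siAHR-5 (x axis) of the members of each gene list (rows, with the number in the table), 1 point a gene, blue where it fell, red where it rose and grey where it was not called. Black bars are list medians and the dashed line is the median of all genes, 0.01. The lists of ribosome production and cholesterol synthesis have medians between -0.32 and -0.19, and the immediate early genes have 0.25.

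Pcna, the sliding clamp of DNA polymerases, was the 1 gene called of 46 in DNA replication, a share near the 2.32% of all genes. It read 14.60, 14.50 and 14.52 against 15.35, 15.38 and 15.41 with siCtrl (log2FC -0.84, SE 0.0336, limma adjusted p = 1.99e-04), and 15.53, 15.53 and 15.56 with siAHR-2. It was lower with siAHR-5 than with siAHR-2 by the direct test (limma adjusted p = 5.44e-05). Called list members such as Pcna were named for their change in the same siAHR-5 libraries. Their direct tests against siAHR-2, here and below, are therefore not independent of the choice. Of the list, 24 were lower and 5 higher at an adjusted p below 0.05, beside 18.1% and 21.1% of all genes, with a median of -0.12. Of 35 mitotic genes 0 were called, and 7 were higher and 3 lower, the former near the share of all genes. Their median was 0.03, and it turns to -0.03 after centring.

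Targets of p53 leaned up. Of the 21 measured targets, 3 rose and 0 fell, where 1.47% of all genes rose: Cdkn1a, Tp53inp1 (0.72) and Zmat3 (0.68). Tp53inp1 read 12.38, 12.27 and 12.39 with siAHR-5, 11.66, 11.62 and 11.59 with siCtrl and 11.97, 12.04 and 12.04 with siAHR-2. Zmat3, an RNA-binding protein, read 15.66, 15.63 and 15.72, 14.99, 14.92 and 15.05, and 15.53, 15.53 and 15.52 in the same order of groups. Cdkn1a thus rose with siAHR-5 and stayed level with siAHR-2 (log2FC 0.04), while the other two stood above siCtrl with both siRNAs. At an adjusted p below 0.05, 10 of the 21 were higher and 1 was lower, where 21.1% of all genes were higher and 18.1% lower.

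Stress genes moved in part. Of 28 genes of the ATF4 and unfolded protein response, Ddit4 (0.66), Slc7a11 (0.65) and Ddit3 (0.63) rose and 0 fell, where 1.47% of all genes rose. Ddit4 restrains mTORC1, Slc7a11 is the cystine transporter and Ddit3 encodes CHOP. In the list 9 were higher and 12 lower at an adjusted p below 0.05, beside 21.1% and 18.1% of all genes, with a median of -0.04 that becomes 0.03 after quantile normalization. Slc7a11 misses the fold after quantile normalization (0.56) and Ddit3 after centring (0.57). Of 21 NRF2 targets, Txnrd1 and Nqo1 fell and Slc7a11 rose, where 2.32% of all genes were called. By the wider measure 10 were higher and 6 lower, and their median of 0.05 becomes -0.01 after centring.

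Genes of sterol synthesis leaned down. Of 24 genes 3 fell, where 0.849% of all genes did, among them Fdps (-0.85), the farnesyl diphosphate synthase, and Hmgcs1 (-0.75), which makes HMG-CoA. Fdps read 15.05, 14.90 and 14.97 against 15.81, 15.84 and 15.83, and 15.44, 15.40 and 15.40 with siAHR-2. Fdps and Hmgcs1 were also lower with siAHR-2 than with siCtrl, with log2 differences of -0.41 and -0.35, and lower again with siAHR-5 than with siAHR-2, with differences of -0.44 and -0.40. In the list 15 were lower and 1 higher at an adjusted p below 0.05, beside 18.1% and 21.1% of all genes, and the median was -0.32, beside -0.21 for siAHR-2 minus siCtrl.

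Immediate early genes leaned up. Of 23 immediate early genes Klf2 (0.83), Junb (0.77) and Nr4a1 (0.76) rose and 0 fell, where 1.47% of all genes rose, and 12 were higher and 0 lower at an adjusted p below 0.05, beside 21.1% and 18.1% of all genes, with a median of 0.25. Junb, a subunit of AP-1, read 15.23, 15.53 and 15.43 against 14.59, 14.67 and 14.63 and was also above siAHR-2 by 0.74 (SE 0.0842, limma adjusted p = 0.00166). Klf2 misses the p cutoff narrowly without siAHR-5 replicate 3 (adjusted p = 0.01003) or without siCtrl replicate 3 (adjusted p = 0.0102). Nr4a1 differed less between the siRNAs (0.21, limma adjusted p = 0.0432). Ccl2, the monocyte chemokine, was the 1 called of 20 cytokines and chemokines, where 2.32% of all genes were called. Of that list 8 were higher and 0 lower at an adjusted p below 0.05, and its median of 0.16 becomes 0.07 after quantile normalization. Ccl2 read 10.51, 10.47 and 10.66 against 9.55, 9.70 and 9.38 (log2FC 1.00, SE 0.0957, limma adjusted p = 0.00104). With the replicate number as a block its adjusted p was 0.0103. Of 31 interferon-response genes Gbp2 (0.64, 0.58 after centring) was the 1 that rose, where 1.47% of all genes rose, and 18 were higher and 1 lower at an adjusted p below 0.05.

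In the TGF-beta pathway both signalling receptors fell. Tgfbr2 fell by 0.86, from 14.29, 14.26 and 14.10 to 13.35, 13.37 and 13.35, and Tgfbr1 fell by 0.84, from 13.35, 13.26 and 13.22 to 12.49, 12.33 and 12.48. Tgfbr1 did not fall with siAHR-2, where it read 13.57, 13.52 and 13.56, and the direct difference was -1.11 (SE 0.0464, limma adjusted p = 8.61e-05). Tgfbr2 read 13.78, 13.82 and 13.74 with siAHR-2, between the other groups. Of the 32 genes of this list 2 fell and 1 rose past the cutoffs, where 0.849% and 1.47% of all genes did, and 13 were higher and 3 lower at an adjusted p below 0.05, beside 21.1% and 18.1% of all genes.

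The study centres on WNT signalling, in which Wnt ligands bind frizzled receptors and LRP co-receptors and so stabilise beta-catenin, the co-activator of TCF/LEF factors. Of 68 measured WNT genes, 3 were called, where 2.32% of all genes were. Ruvbl1, an ATPase that binds beta-catenin, read 13.16, 13.18 and 13.15 against 13.81, 13.82 and 13.89 and fell by 0.68, and it was lower than with siAHR-2 by the direct test (-0.65, SE 0.0261, limma adjusted p = 8.22e-05). Lrp6, the co-receptor, read 13.40, 13.27 and 13.35 against 14.02, 13.95 and 13.84 (log2FC -0.60). It misses the fold after quantile normalization (-0.57), without siAHR-5 replicate 2 (-0.56) and without siCtrl replicate 1 (-0.55). Lrp6 was also lower with siAHR-2 than with siCtrl, by a log2 difference of -0.25. Apc2 rose by 0.62, a call lost after quantile normalization (0.50), after centring (0.56) and without any 1 library except siCtrl replicate 2. Lef1 read 11.50, 11.59 and 11.50 against 11.33, 11.26 and 11.26 (log2FC 0.25, limma adjusted p = 0.00537), higher in every siAHR-5 library but short of the fold. With siAHR-2 Lef1 read 11.40, 11.46 and 11.55, and the direct test did not separate the siRNAs (0.06, limma adjusted p = 0.418). In the myc-/- cells Lef1 read 9.28, 9.42 and 9.45. Of the WNT list 22 were higher and 8 lower at an adjusted p below 0.05, where 21.1% of all genes were higher and 18.1% lower. The list's median was 0.07 as deposited, 0.04 after quantile normalization and 0.01 after centring.

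The fatty acid genes the study follows downstream of LEF1 changed little. Ppard had a log2FC of -0.10 (limma adjusted p = 0.136) and Acad9 of -0.14 (adjusted p = 0.0304). The row of the rat Myc gene, which is disrupted in this line, read 8.37, 8.34 and 8.51 against 8.16, 8.19 and 8.27 (limma adjusted p = 0.0528). In the myc-/- cells without MYC the same row read 10.90, 10.82 and 10.94, above all 6 libraries. What transcript the row measures in this line was not tested. The human MYC transcript was not analysed here.

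Among the other lists few genes passed, where 2.32% of all genes were called (1.47% higher, 0.849% lower). Ndrg1, a hypoxia-induced gene, fell by 0.85 as the 1 called of 27 in glycolysis and hypoxia, whose median of -0.11 becomes 0.04 after quantile normalization. Of 47 receptor tyrosine kinases and axon guidance genes, Mertk (0.96), a receptor for the clearance of apoptotic cells, and Sema7a (0.61) rose. Sema7a misses the fold after quantile normalization (0.54) and centring (0.55). Of 26 collagens Col6a2 (0.64, 0.58 after centring) rose, and of 36 matrix proteins the collagenase Mmp13 (0.75) rose. Mmp13 passed the p cutoff with the 6 libraries (limma adjusted p = 0.00545) but not with the replicate number as a block (adjusted p = 0.0181) or without any 1 library except siAHR-5 replicate 2 (adjusted p up to 0.0259). In the lists of contractile genes, YAP targets and lysosomal genes 0 of 21, 0 of 15 and 0 of 28 were called.

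The fibroblast label was checked on 12 markers. Vim, Fn1, Col1a1 and Col3a1 were at high levels, with group means from 14.80 for Col3a1 to 19.45 for Vim. Col1a2 (3.64) and Lum (5.84) were far lower in both groups. Of the 12, Thy1 rose by 0.75 and 0 fell, where 1.47% of all genes rose and 0.849% fell. Short of the fold, Pdgfrb (0.55, limma adjusted p = 0.00104), Sparc (0.42, adjusted p = 4.22e-04) and Col1a1 (0.22, adjusted p = 0.00265) were higher. Vim was lower (-0.48, limma adjusted p = 3.62e-04). Epithelial, endothelial, leukocyte, neuronal and muscle markers had 0 calls, where 2.32% of all genes were called, but calls do not measure presence. Of these, Krt8, Tek, Des, Myh3, Pecam1 and Cd68 stood above Lum in level. Epcam, Cdh1, Krt19, Cdh5, Kdr, Ptprc, Csf1r, Rbfox3 and Tubb3 stood below it. The sum of the log2 values of the 12 fibroblast markers, which is not itself an expression level, was 159.69, 159.82 and 159.45 with siAHR-5. With siCtrl it was 157.94, 157.73 and 157.94, without overlap. The same sum over the 4 epithelial markers ran from 17.1 to 17.5 in both groups. In RNA of a whole culture, fewer cells that express a gene and less RNA per cell cannot be told apart.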

How the data were processed

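Poly-A RNA-seq was analysed in 12 of the 18 libraries. The authors aligned reads to rn6 with HISAT2 2.1.0, left out genes below 10 reads in total and used DESeq2 to normalize; the counter, annotation and strand setting are not given in the sources used here. The authors deposited log2 values for 13188 genes, labelled log CPM, although they do not sum to CPM off the log scale; the transformation is unknown, no counts can be recovered, and depth is therefore unknown. How it treats changes of genes of low level was not tested.

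Groups followed the sample labels. limma 3.58.1 (R 4.3.3), with empirical Bayes moderation along a mean-variance trend, was fitted to the 6 libraries of each pair of groups, without covariates, with Benjamini-Hochberg adjustment over all genes. The fits were tested on simulated data. Named genes were Ahr and the 12 largest rises and falls among called genes with non-overlapping groups and a mean of at least 5. They also included the called list members of largest change (at most 4 per direction), every AHR partner and target, and genes the paper discusses. Thy1, Vim, Fn1, Col1a1, Col1a2, Col3a1, Lum, Pdgfrb, Sparc and the markers of other cell types are from the marker list. Some genes the rule picks are not reported here. The members and lists were chosen with earlier results of these data known. Alternatives changed the cutoff, the scale (quantile normalization, median centring), the fit (12 libraries together, no trend, a block on replicate number), the filter (mean of 5 or more) or the pseudocount (1), or left out each library. Promoters are RefSeq (GRCr8), matched by symbol. Figures were drawn with matplotlib 3.10.9.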

Additional observations from a re-analysis of the deposited data

How the results depend on the processing

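The number of calls depended most on the cutoff. At an adjusted p below 0.05 with no fold, siAHR-5 against siCtrl gave 5169 genes (2786 higher, 2383 lower), siAHR-5 against siAHR-2 gave 5151 (2909 higher, 2242 lower), and 571 list members passed. The same cutoff after quantile normalization, an alternative chosen after seeing the data, gave 5172 genes (2620 higher, 2552 lower) and 564 list members. Quantile normalization at the original cutoffs lowered the rises to 127.

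With each library left out in turn, siAHR-5 against siCtrl gave 274 to 297 genes (157 to 182 higher, 110 to 127 lower) and 35 to 40 list members. With all 6 libraries 38 list members were called, beside 2.32% of all genes. Against siAHR-2, leaving out each library gave 258 to 280 genes (153 to 167 higher, 104 to 113 lower). Of the 57 named genes that were called, 44 passed under every alternative, 50 with each library left out, 52 after quantile normalization and 50 after centring. None of these 57 genes changed direction against siCtrl in the alternatives run. They had passed the fold cutoff in the same libraries, so this is no separate support. Small list medians did change sign. After quantile normalization these were ATF4 and UPR (-0.04 to 0.03) and glycolysis and hypoxia (-0.11 to 0.04). After centring they were mitosis (0.03 to -0.03), NRF2 targets (0.05 to -0.01), YAP targets (0.05 to -0.01) and lysosome (0.05 to -0.01). The median of all genes went from 0.01 to -0.05 after centring, and the balance of calls from 194 higher and 112 lower to 140 higher and 165 lower.

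Samples with the same replicate number did not clearly deviate together (correlations of 0.218, 0.139 and -0.0650), and not every library correlated best with its own number. With so few libraries a group, these values cannot decide whether same-numbered samples were handled together. With the replicate block 270 genes were called (159 higher, 111 lower), all of them called without it, and 266 against siAHR-2. List members called with the block were 36, beside 38 without it. Ccl2 and Mmp13 were the named genes lost. Read depth is unknown, so how it limits genes of low level was not tested.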
